A study of Mus musculus with 4 samples.

Results

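Among the genes of type 2 immunity, 8 regulators and receptors were followed in mouse T helper 17 (Th17) cells with and without the microRNA miR-155: the transcription factor genes Gata3, Pparg and Nfil3, the receptor genes Il1rl1, Il4ra, Crlf2 and Gpr44, and Areg, the gene of a growth factor. They were chosen by symbol, with earlier results of these data known, from 26680 genes or transcripts named on the arrays. Gpr44 is the older name of Ptgdr2, and all 8 were found, on 11 probes. RNA was read on 4 one-colour Agilent arrays; 2 held RNA of the wild type and 2 that of the knockout (miR-155-/-). In both groups CD4+ T cells were cultured with antibodies to CD3e and CD28, TGF-beta and IL-6, and then sorted as CD4+ cells with a red fluorescent protein (RFP) signal from an IL-17F reporter. The labels give no strain, age, animal or culture, so p-values measure only the spread between these samples, which may be technical. Because of the sort, the comparison concerns reporter-positive cells of each genotype. The level of miR-155 itself was not analysed here.

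Type 2 immunity is the arm of the immune system that acts against worms and drives allergy, and its T helper cells (Th2) make IL-4, IL-5 and IL-13. GATA3 is their defining transcription factor. Signals reach such cells through the IL-4 receptor, through ST2 (the IL-33 receptor chain encoded by Il1rl1), through the TSLP receptor chain encoded by Crlf2 and through the prostaglandin D2 receptor encoded by Gpr44. Th17 cells follow a different program, built on RORgammat and IL-17. miR-155 is a microRNA of activated lymphocytes, which lowers messenger RNAs that pair with its seed.

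The sequence missing from the knockout cells and those by which the members were read are shown first. The mature strands of mouse miR-155, taken from RefSeq on GRCm38.p6 (chr16:84714143-84714165 and chr16:84714182-84714202, plus strand), have their seeds, bases 2 to 8, in capitals.
mmu-miR-155-5p: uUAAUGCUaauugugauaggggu
mmu-miR-155-3p: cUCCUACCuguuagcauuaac
The DNA letters that pair with the seed of miR-155-5p, AGCATTA, occurred in 0 of the 11 member probes and in 0.392% of the 35944 gene probes. A probe covers 60 bases of a transcript, so this says only that those letters are not in these windows.

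The probes of genes measured more than once, and of the members with the largest differences, are shown by the last 30 of their 60 bases. Capitals mark AATAAA or ATTAAA, the letters of the signal that ends a transcript, which 14.4% of gene probes hold in those bases.
Gata3: gatacagaagaaaccactaagtctgatgtc
Pparg: tccttctattgattgcactattattttgag
Il1rl1, variant 1, distal: tgtgtttgaagagttctagcttATTAAAaa
Il1rl1, variant 1, proximal: tgttttcagttctaaatgccttttatatat
Il1rl1, variant 2: tgagtgtactttagttcacgtttgtattag
Il4ra, distal: ccatctcttcattctATTAAAattacttat
Il4ra, proximal: gtgtgccacatggaaatgaataggccggtc
On mm9, the build of the files, these probes lay at chr2:9779551-9779610 (minus strand) for Gata3 and at chr6:115440213-115440272 for Pparg. Those of Il1rl1 lay, in the order shown, at chr1:40522187-40522246, chr1:40520014-40520073 and chr1:40504769-40504828, and those of Il4ra at chr7:132722922-132722981 and chr7:132712550-132712609. Exon annotation on mm9 was not used here.

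Levels are log2 processed signals minus the 75th percentile of the array, so that 0 is the 75th percentile and a step of 1 is a 2-fold difference in signal. All differences are knockout minus wild type. A gene was tested with limma if a probe of it was well above background, by the scanner software's own criterion, on both arrays of a genotype. The brightest such probe stood for the gene, and this left 19151 genes. Of the 8 members 7 were tested; Gpr44 was not.

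The levels of Gata3 and Pparg were higher in the knockout cells by 1.25 and 1.098 on the log2 scale, at an unadjusted p under 0.05. Il1rl1 had a difference of 1.23 that did not pass that threshold, and those of Nfil3, Il4ra and Crlf2 were under 0.5. All 7 tested members had a difference above 0, against 52.4% of all tested genes, though with arrays shifted by their medians Crlf2 stood at -0.0011. The median over the 7 was 0.753, against 0.017 over all tested genes, and it was 0.33 without knockout replicate 1 and 1.16 without knockout replicate 2. Both knockout arrays lay above both wild-type arrays for 6 of the 7, against 25.4% of all tested genes, and both below for 0, against 22.3%. With arrays shifted by their medians the 6 became 5, against 12.2% of tested genes. Before scaling, the signals of Nfil3 and of the distal Il4ra probe overlapped between genotypes, and those of Crlf2 were lower in the knockout. At an unadjusted limma p under 0.05, the threshold for every count by unadjusted p here, 3 members were higher (Gata3, Pparg and Nfil3), against 7.23% of tested genes, and 0 were lower, against 4.1%. Because the members were chosen with earlier results of these data known, these counts describe the list and do not test it.

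No member passed after adjustment. By limma, with p-values adjusted after Benjamini-Hochberg, 0 of the 19151 genes passed 0.05 (0%), and the members' adjusted p ran from 0.310 for Pparg to 0.664 for Areg. Unadjusted, 1384 genes were higher and 785 were lower at 0.05, and limma with trended, robust variances called 122 genes, of which 0 were members. The count of 3 members at unadjusted p became 1 without wild-type replicate 2 or without knockout replicate 1, and 1 with each array shifted by its median. It became 5 with normexp background correction. With 2 arrays a side, the smallest two-sided p that an exact permutation test of a single gene can reach is 0.333.

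**Figure D1:**
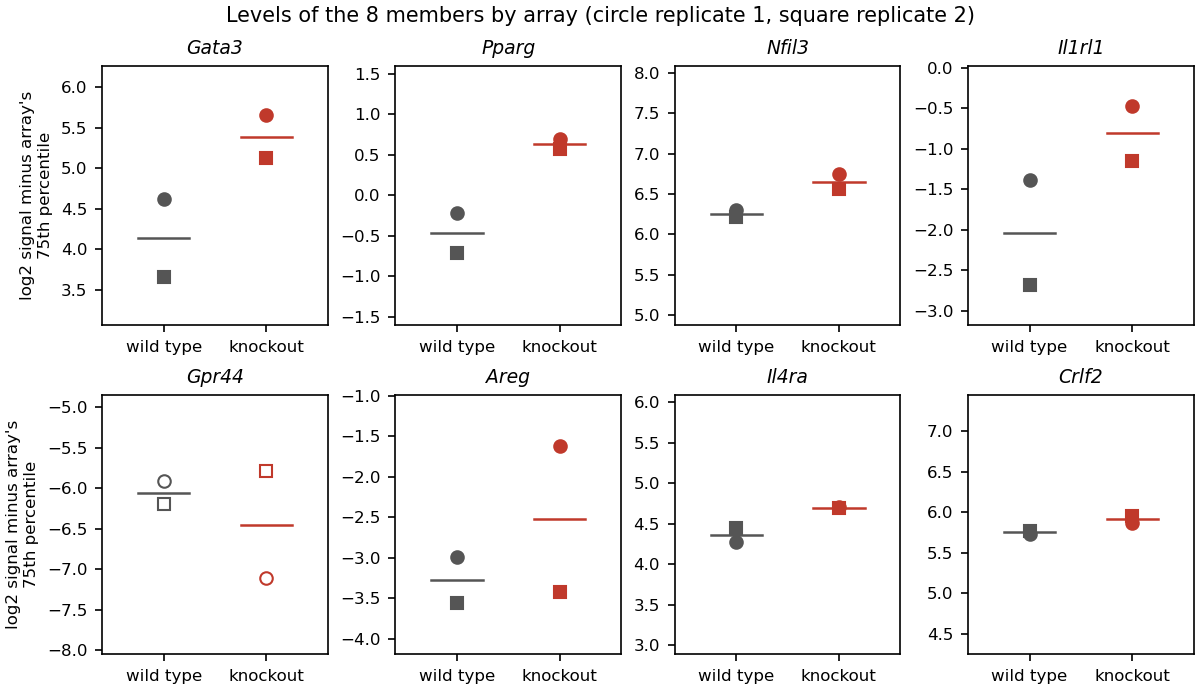
Level of each member on each array, as log2 processed signal minus the array's 75th percentile, from its brightest tested probe; every panel spans 3.2 log2 units, horizontal lines are group means, and open symbols mark Gpr44, whose probe was not well above background on any array. Both knockout arrays lie above both wild-type arrays for Gata3, Pparg, Nfil3, Il1rl1, Il4ra and Crlf2, and the groups overlap for Areg.

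The arrays themselves set limits on these values. The share of spots well above background was 63.5% to 69.8%, and 0 were saturated. Before scaling, the 75th percentile over spots was 662.1 and 704.7 on the wild-type arrays and 510.5 and 544.6 on the knockout arrays. Scaling therefore raised every knockout level relative to wild type. All arrays lay on 1 slide, the wild type in its row 1 and the knockout in its row 2, and row and genotype cannot be told apart. On knockout array 1 the multiplicative detrending had been applied to 0.799% of spots well above background, against 100% on the other arrays. Slide columns held 1 array of each genotype, the arrays with the same replicate number. Within columns the difference was above 0 in both for all 7 tested members, as it was for 31.1% of tested genes. For the 6 members with both knockout arrays above both wild-type arrays this was bound to hold, so the count largely restates that separation. The members' probes had 0 spots in the corner blocks at the right edge of the array that an alternative left out.

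Gata3 encodes the zinc finger transcription factor that opens the Th2 cytokine locus and holds Th2 identity. Its processed signal was 13938 and 7728 on the wild-type arrays and 22505 and 16575 on the knockout arrays. The lowest knockout array stood 0.50 above the highest wild-type array, and the wild-type arrays stood 0.96 apart. Its level averaged 4.14 ± 0.68 (SD, n = 2) in wild type. In the knockout it averaged 5.39 ± 0.38 (SD, n = 2). The difference was 1.25 ± 0.40 (SE), or 2.38-fold, with a limma unadjusted p of 0.0328 and an adjusted p of 0.405. Of all tested genes 98.7% had a lower difference. Within slide columns the difference was 1.04 and 1.46. It was 0.77 without wild-type replicate 2, the lower wild-type array. With the slide column as a block, Gata3 had an unadjusted limma p of 0.00399 and an adjusted p of 0.432. Its unadjusted limma p was under 0.05 in 10 of 15 alternatives. It was 0.0685 without wild-type replicate 2, 0.132 without knockout replicate 1, 0.0561 with arrays shifted by their medians or in the authors' matrix, and 0.0922 with trended, robust variances.

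Genes with the profile most like that of Gata3 across the 4 arrays were taken by the root mean square distance between levels after each gene's mean was subtracted. They were Mapt at 0.032, Cxcr6 at 0.041, Ddc at 0.048, Flvcr2 at 0.10 and Zbtb16 at 0.10, in log2 units. Cxcr6 encodes a chemokine receptor and Zbtb16 the transcription factor PLZF, and their differences were 1.32 and 1.45. With 4 arrays such a likeness describes these arrays only.

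The partners and regulators of GATA3 were mixed. In that list of 16 tested genes 1 was higher and 1 lower by unadjusted p, with 8 above and 8 below 0 and a median of -0.024. Gfi1, a repressor that supports Th2 growth, differed by 0.50 ± 0.15 (SE), and Tcf7, a factor of naive and memory T cells, by -0.66 ± 0.13 (SE). Rbpj, which carries Notch signals, stood at 0.25 and Runx3, a Th1 factor, at -0.26, neither under 0.05. Stat6, which carries the IL-4 signal to Gata3, had a difference of -0.055 ± 0.11 (SE).

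Pparg encodes PPARgamma, a nuclear receptor for fatty acids that binds DNA with RXR partners and is known in Th2 cells, in tissue regulatory T cells and in macrophages. Its probe was printed 10 times on each array, so its value has a technical check that the other members lack. The mean signal of the 10 spots was 487.8 and 376.3 on the wild-type arrays and 694.3 and 710.8 on the knockout arrays. All 10 spots of knockout array 2 and 9 of the 10 of knockout array 1 were brighter than every wild-type spot. The exception was a spot at 423.5. With that array's signals divided by the fitted surface, it stood at 683.1. The log2 SD between spots was 0.274 on knockout array 1 (0.143 after that division) and 0.057 to 0.066 on the other arrays.

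**Figure D2:**
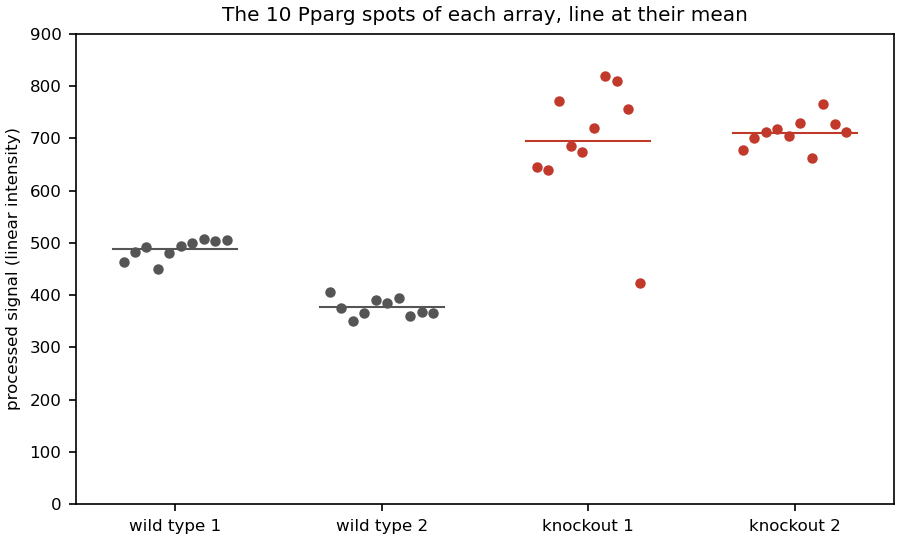
Processed signal of the 10 Pparg spots on each array, on a linear scale, with a line at the mean of the spots; spots are technical repeats and not replicates of a genotype. Knockout array 1 is the most scattered, with 1 spot at 423.5, and the spots of the wild-type arrays do not overlap each other.

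The level of Pparg averaged -0.46 ± 0.35 (SD, n = 2) in wild type. Its knockout average was 0.63 ± 0.083 (SD, n = 2). The difference was 1.098 ± 0.21 (SE), or 2.14-fold, with a limma unadjusted p of 0.00556 and an adjusted p of 0.310. This was the smallest p among the members. It remained under 0.05 unadjusted in all 15 alternatives tried, with an adjusted p from 0.0528 to 0.543, and the difference ranged from 0.85 to 1.34. The wild-type arrays, at 450.3 or above for every spot of array 1 and 406.5 or below for every spot of array 2, stood further apart than the knockout arrays.

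Genes that work with PPARgamma or respond to it lay on both sides of 0. Of 13 tested partners and targets 0 were higher and 0 lower by unadjusted p, and the median was -0.050. Plin2, at -0.43, and Rxra, at 0.090, had all their spots in a corner block, and both enter that median. Plin2 was at 1.83 on knockout array 1 and at 2.79 to 2.92 on the other arrays. Fabp4, a fatty acid carrier and a classical target, was at -0.63 ± 0.41 (SE), Acaa2, an enzyme of fatty acid oxidation, at -0.19, the related receptor gene Ppara at 0.22, and Ncor1, a corepressor gene, at 0.11. Cd36, a fatty acid uptake receptor and another classical target, was not well above background on any array.

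Nfil3 encodes E4BP4, a basic leucine zipper repressor induced by IL-3 and IL-4 that acts in Th2 cytokine control, in innate lymphocyte development and in the circadian clock. Its processed signal was 44829 and 45348 in wild type and 47816 and 45181 in the knockout, so that the raw signals overlapped. After scaling, the wild-type arrays were at 6.30 and 6.21 and the knockout arrays at 6.74 and 6.57, and they did not overlap. The difference was 0.40 ± 0.13 (SE), or 1.32-fold, with a limma unadjusted p of 0.0393 and an adjusted p of 0.420. It was 0.24 with arrays shifted by their medians, where the median of all genes was -0.14, and 0.26 with the surface of knockout array 1 divided out, with unadjusted limma p of 0.176 and 0.0998. The p was 0.0795 with the slide column as a block and 0.0676 with dim probes kept. It was 0.102, 0.166 and 0.131 without wild-type replicate 1, wild-type replicate 2 and knockout replicate 1 in turn.

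NFIL3 competes for DNA with the PAR-domain factors of the clock, and that group was mixed. Of 12 tested clock and PAR-domain genes 0 were higher and 2 lower by unadjusted p, with a median of -0.056. The lower ones were the clock repressor genes Cry1, at -0.97 ± 0.20 (SE), and Per2, at -0.44 ± 0.13 (SE). Per3, of the same family as Per2, was at 0.44 and Hlf, a PAR-domain factor, at 0.30, both above 0.05. Clock, at -1.55, and Nr1d2, at -0.95, had all their spots in a corner block. Both were lowest on knockout array 1, at -4.49 and -2.11, and both enter the median of this list.

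Il1rl1 encodes ST2, the chain that binds the alarmin IL-33. One transcript gives the membrane receptor and a shorter one a soluble decoy. Of the 3 probes, 2 were assigned by the files to variant 1, the longer transcript, and 1 to variant 2, the shorter, which lay 17.4 kb from the brightest variant 1 probe. That distal variant 1 probe had signals of 216.5 and 94.9 in wild type and 320.9 and 215.4 in the knockout. After scaling, the knockout arrays, at -0.48 and -1.15, both lay above the wild-type arrays, at -1.39 and -2.69. The difference was 1.23 ± 0.52 (SE), or 2.34-fold, with a limma unadjusted p of 0.0745 and an adjusted p of 0.469. It depended on the wild-type arrays, at 0.58 without replicate 2 and 1.88 without replicate 1, with unadjusted limma p of 0.181 and 0.00708. With the slide column as a block the unadjusted p was 0.00726, and with normexp it was 0.0299.

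The variant 2 probe was dim. Its signal was 17.1 and 9.59 in wild type, where 1 of 2 arrays was well above background, and 23.2 and 20.2 in the knockout, where both were. The difference was 1.11 ± 0.36 (SE), with an unadjusted p of 0.0358 and an adjusted p of 0.432 in a limma fit of all 25477 tested probes. The proximal variant 1 probe was well above background on knockout array 1 alone, at 18.8, and was not tested.

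**Figure D3:**
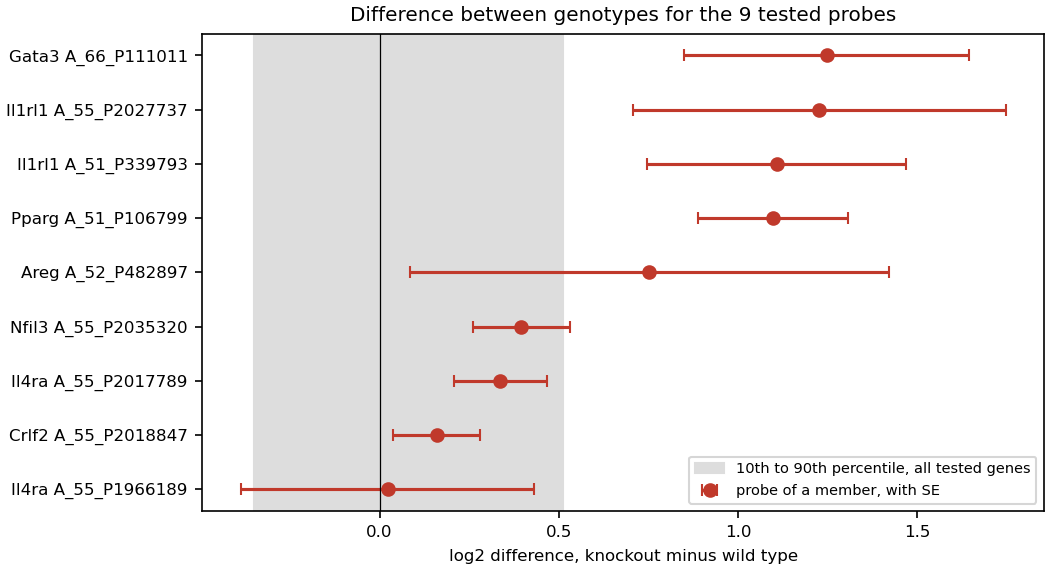
Log2 difference, knockout minus wild type, of the 9 tested probes of the members, with the standard error from the limma fit of all tested probes; the grey band runs from the lower to the upper decile of all tested genes (-0.35 to 0.51). The probes of Gata3, Pparg and Il1rl1 lie to the right of the band, those of Nfil3, Il4ra and Crlf2 inside it, and that of Areg outside it with the widest error.

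The genes of ST2 signalling lay on both sides of 0. Of 12 tested genes 1 was higher and 0 lower by unadjusted p, namely Tab2, an adaptor of the TAK1 kinase, at 0.34 ± 0.12 (SE), and the median was 0.029. Il1rap, the shared second chain of the receptor, was at -0.28 ± 0.18 (SE), and the adaptor gene Myd88 at -0.16. Sigirr, an inhibitory receptor of the family, was at 0.17, and Traf6 and Irak4, which pass the signal on, at -0.27 and -0.20. Il33 itself was not well above background on any array.

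Il4ra encodes the chain shared by the receptors of IL-4 and IL-13, and it was read by 2 probes. The distal probe had signals of 11025 and 13316 in wild type and 11635 and 12353 in the knockout, which overlap before scaling. After scaling it was at 4.28 and 4.45 in wild type and at 4.70 and 4.69 in the knockout. The difference was 0.34 ± 0.13 (SE), with a limma unadjusted p of 0.0561 and an adjusted p of 0.448. The proximal probe, 10.4 kb away, was at 1.28 and 1.21 in wild type and at 1.84 and 0.71 in the knockout. Its groups overlapped and its difference was 0.022 ± 0.41 (SE). With the median of both probes Il4ra was at 0.18.

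The rest of the IL-4 and IL-13 receptor path lay near or below 0. Of 12 tested genes 0 were higher and 1 lower by unadjusted p, with 10 below 0 and a median of -0.083. The lower one was Irs2, an adaptor that links the receptor to growth signalling, at -0.50 ± 0.16 (SE). The partner chains Il2rg and Il13ra1 were at -0.080 and -0.13, the kinase gene Tyk2 at 0.63 ± 0.32 (SE), the adaptor gene Grb2 at 0.16, and Socs1, an inhibitor of the path, at -0.20.

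Crlf2 encodes the chain that binds TSLP, an epithelial cytokine, and pairs with the IL-7 receptor chain. Its signal was 30208 and 33283 in wild type and 25978 and 29643 in the knockout. Scaling turned this order round, to 5.73 and 5.77 in wild type and 5.86 and 5.96 in the knockout. The difference of 0.16 ± 0.12 (SE), or 1.12-fold, had a limma unadjusted p of 0.251 and an adjusted p of 0.610, and its direction rested on the scaling, at -0.0011 with arrays shifted by their medians and in the authors' matrix. The partner chain gene Il7r was at 0.49 ± 0.11 (SE), with a limma unadjusted p of 0.0116. It was the 1 gene of 8 tested in the TSLP receptor list that was higher at that threshold, and 0 were lower. The median was 0.018, with Stat5a, the main signal carrier of TSLP, at 0.24, and Stat3 at -0.29.

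Gpr44 encodes CRTH2, a prostaglandin D2 receptor found on Th2 cells among others. Its signals of 9.41 and 8.34 in wild type and 3.23 and 8.63 in the knockout were not well above background on any array, so no difference is given. Among enzymes and receptors of prostaglandins 1 of 10 tested genes was higher and 0 lower by unadjusted p, with a median of -0.18. The higher one was Ptgir, the prostacyclin receptor gene, at 0.64 ± 0.18 (SE). Hpgds and Ptgds, the synthases that make prostaglandin D2, were at -0.32 ± 0.13 (SE) and 0.36 ± 0.14 (SE), and Gnai2, a G protein gene of the receptor's class, at -0.30. The other prostaglandin D2 receptor gene, Ptgdr, was also not well above background on any array.

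Areg encodes amphiregulin, a ligand of the EGF receptor that type 2 and regulatory lymphocytes release for tissue repair. It had signals of 71.7 and 51.7 in wild type and 145.7 and 44.4 in the knockout. Knockout array 1 was thus the highest and, before scaling, knockout array 2 the lowest, and the groups overlapped. The knockout arrays, at -1.62 and -3.43, stood 1.81 apart. The difference of 0.75 ± 0.67 (SE) had a limma unadjusted p of 0.320 and an adjusted p of 0.664. It was 1.66 without knockout replicate 2, 0.46 without wild-type replicate 2, and -0.15 without knockout replicate 1.

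Other EGF receptor ligands were read beside Areg. Of 9 tested genes of ligands, receptors and shedding enzymes 2 were higher and 0 lower by unadjusted p, with a median of 0.11. Hbegf, heparin-binding EGF, was at 1.099 ± 0.23 (SE), from -0.98 and -0.82 in wild type to -0.08 and 0.48 in the knockout, with no overlap. Epgn, the epigen gene, was at 0.58 ± 0.17 (SE). Egf and Adam17, the enzyme that sheds amphiregulin, were at -0.26 and -0.23, and Tgfa, Ereg and Btc were not well above background on any array.

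The members shared an order of arrays. Wild-type array 2 was the lowest for 5 of the 7 tested members (Gata3, Pparg, Nfil3, Il1rl1 and Areg), against 18.8% of all tested genes, and knockout array 1 was the highest for 6, against 36.4%. Both held for 5 of 7, against 9.31% of tested genes. The differences of these members thus share the same outer arrays. The separation of the genotypes in 6 of the 7 already makes a wild-type array lowest and a knockout array highest. Set against all tested genes, these counts therefore partly restate that separation.

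Several cytokines of type 2 immunity had higher values in the knockout. In the list of 8 tested type 2 cytokine genes 4 were higher and 0 lower by unadjusted p, and the median was 0.44. Il5, the eosinophil growth factor gene, was at 3.58 ± 0.45 (SE), and Il31, a cytokine of itch, at 0.59 ± 0.12 (SE). The other genes higher were Il13 at 2.22 ± 0.51 (SE) and Il4 at 1.36 ± 0.29 (SE), while Il9 and Il10 were at -0.12 and -0.10. The list of other Th2 and type 2 lymphoid genes had 4 of 16 higher and 1 lower, with a median of 0.18. Il17rb, the IL-25 receptor chain gene, was at 2.79 ± 0.69 (SE) with 1 wild-type array not well above background, Klrg1, an inhibitory receptor gene, at 1.95 ± 0.21 (SE), and Cyp11a1, a steroid-making enzyme gene known in Th2 cells, at 1.18 ± 0.16 (SE). Rora, which Th17 cells and group 2 innate lymphocytes share, was at -0.59 ± 0.19 (SE) and Il18r1, an IL-18 receptor chain gene, at -0.23. Adjusted over all genes, 0 of them passed.

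**Figure D4:**
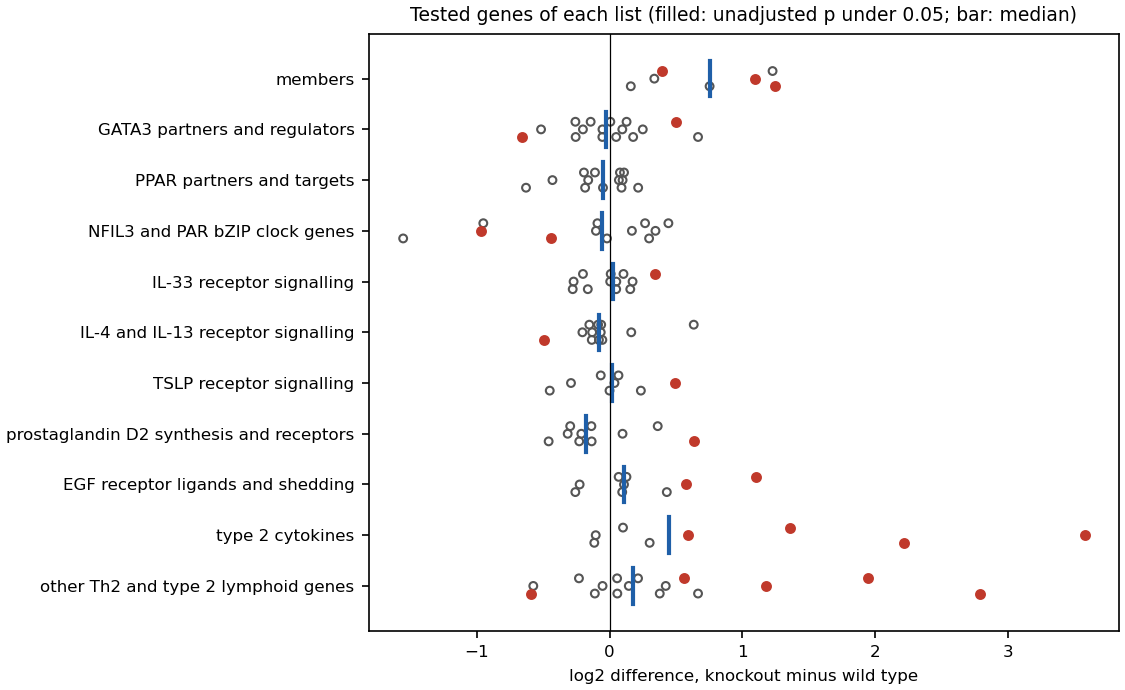
Log2 difference, knockout minus wild type, of every tested gene in the members and in 10 lists of related genes; each circle is a gene, filled circles have a limma unadjusted p under 0.05, and blue bars are medians. The medians of the signalling lists lie between -0.18 and 0.11, those of the type 2 cytokines and of the members at 0.44 and 0.75. Genes with all their spots in a corner block, such as Clock and Nr1d2, are not marked.

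Markers were checked for the labelled cells and for other cells in which these members are known. In bulk samples, fewer cells of a type and less RNA per cell cannot be told apart. Summed signals add linear values, so the brightest genes of a list weigh most. The T cell list had 0 of 11 tested genes higher or lower at an unadjusted p under 0.05. Its summed signal, in multiples of the array's 75th percentile, was 991.4 to 1058 in wild type and 971.0 to 989.8 in the knockout, with Cd4 at -0.16, Cd3e at -0.064, Cd247 at 0.26, Thy1 at 0.049, Cd5 at -0.20 and Cd28 at -0.18. A 12th gene, Lat, was left out because its spot was flagged on an array. Il17f, whose reporter was sorted on, was at 3.73 in wild type and 1.72 in the knockout, a difference of -2.01 ± 0.18 (SE).

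Markers of mast cells and basophils were measured in part. Of 13 genes 7 were not well above background on any array, among them the defining Fcer1a, Ms4a2, Cpa3, Mcpt8 and Gata2. The 4 tested were well above background on all arrays: Tpsb2, a mast cell tryptase gene, with a difference of 0.11, Kit with 0.061, Prss34 with -0.095 and Hdc with -0.032. Of these 0 were higher or lower at an unadjusted p under 0.05. Tpsb2 was at 0.67 and 0.46 in wild type and 0.72 and 0.62 in the knockout. The summed signal of the list was 2.12 to 2.57 in wild type and 2.44 to 2.51 in the knockout. Among 10 eosinophil markers Siglecf, Epx and Prg3 were not well above background on any array. Of the 6 tested 2 were higher, Ear2 at 1.56 and Il5ra, the IL-5 receptor chain gene, at 0.48, and 0 lower, with Gata1 at -0.19 and Ear6 at -0.093. Both higher genes were dim, with wild-type levels of -4.62 and -4.40 for Ear2 and -5.06 and -5.01 for Il5ra. Ccr3, at -0.57, had all its spots in a corner block. The summed signal of the list was 1.48 to 1.68 in wild type and 1.42 to 1.73 in the knockout, most of it from Gata1.

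Genes that mark group 2 innate lymphocytes, several of which activated T cells also express, were largely above 0. Of 11 tested 6 were higher and 1 lower by unadjusted p, against 7.23% and 4.1% of all tested genes, with a median of 0.56. Beside Klrg1 and Il17rb the higher ones were Arg1, Il9r, Zbtb16 and Calca, at 2.02, 0.56, 1.45 and 0.91. The lower one was Rora, at -0.59, and Il18r1 and Id2 were at -0.23 and -0.11. Some of the higher genes were dim in wild type: Il9r at -5.05 and -5.21, Klrg1 at -4.51 and -4.93, and Il17rb at -4.48 and -5.84. The summed signal of the list was 89.0 to 90.5 in wild type and 86.4 to 100.2 in the knockout, and the part of such cells in the members' values was not tested.

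Of 9 regulatory T cell markers 3 were higher and 0 lower, with a median of 0.26. Itgae, an integrin chain gene, was at 1.25, Nrp1 at 1.44 (1 wild-type array was not well above background), and Ikzf2, the gene of the transcription factor Helios, at 0.85. Foxp3, their defining factor, was at 0.22 ± 0.12 (SE), Ctla4 at -0.031, and the summed signal was 284.8 to 308.3 in wild type and 314.3 to 387.2 in the knockout. Most of that sum came from Il2ra and Tnfrsf18. Il2ra had levels of 6.90 and 7.12 in wild type and 7.69 and 7.08 in the knockout. Tnfrsf18 was at 6.98 and 7.04, and at 7.16 and 7.09. Foxp3 levels were -0.97 and -1.11 in wild type and -0.82 on both knockout arrays. Macrophage and dendritic cell markers had 2 of 11 higher and 1 lower, led by Clec7a at 1.48, Flt3 at 0.60 and Mrc1 at -1.01, with Cd14 at -0.67. The median of that list was 0.30, with 9 above 0 and 2 below. Its sum was 18.3 to 18.8 in wild type and 19.9 to 20.2 in the knockout, most of it from Itgam, which differed by 0.016. B cell markers had 1 of 6 higher and 1 lower, Cd79b at 1.16 with all its spots in a corner block, and Ebf1 at -0.97. Pax5 stood at 0.73, with 1 wild-type array not well above background. The sum was 2.05 to 2.99 in wild type and 3.88 to 4.21 in the knockout. Most of it came from Cd79b, at 0.88 and 0.24 in wild type and 1.62 and 1.82 in the knockout, so it largely repeats that gene. The part of these cells in the members' values was not tested.

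**Figure D5:**
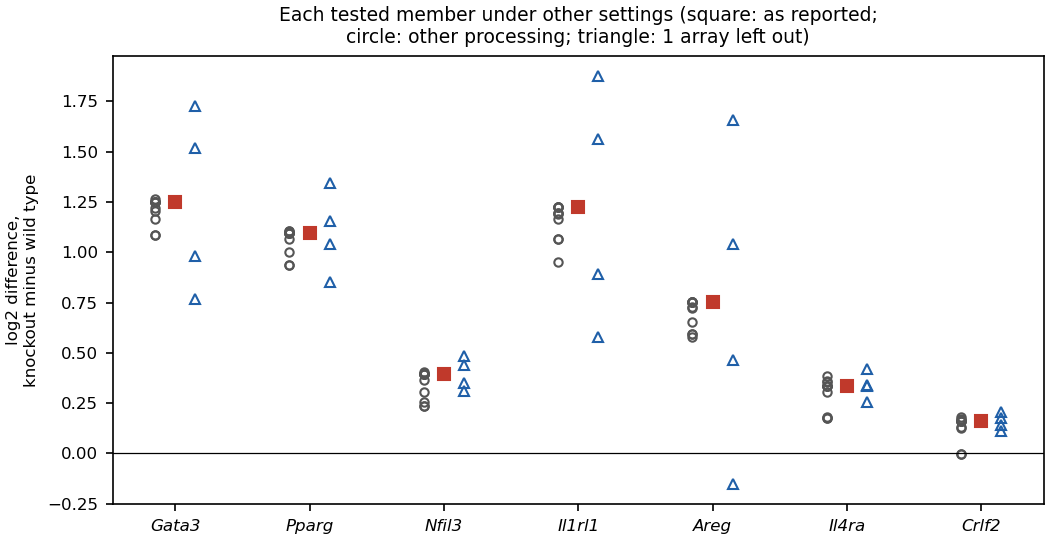
Log2 difference of each tested member as reported (square), under 11 other processing settings (circles) and with each of 4 arrays left out in turn (triangles). Gata3, Pparg, Nfil3, Il1rl1 and Il4ra stay above 0 in each, which their lack of overlap fixes in advance for the triangles. Areg falls to -0.15 without knockout replicate 1, and Crlf2 to -0.0011 with arrays shifted by their medians.

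The promoters of the members were searched for short letters tied to the 3 factors among them. RefSeq gave 11 windows of 250 bases before a transcription start for all 8 genes, on GRCm38.p6. The letters AGATAA, which factors of the GATA3 family are known to bind, stood on either strand in 2 windows, both of Il1rl1, against 9.99% of 32851 such windows. The nuclear receptor letters AGGTCA stood in 4 windows (Il1rl1, Nfil3 and 2 of the 3 of Pparg), against 4607 of the 32851. An NFIL3 motif, TTANGTAA, stood in 0, against 2.06%. No motif contains another. A match is a description of the sequence, and the arrays did not measure binding.

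The windows of Il1rl1 and of Pparg that held a match are shown, with matches to either strand in capitals. The Il1rl1 windows are on the plus strand at chr1:40429320-40429569 and chr1:40439379-40439628. The Pparg windows are on the plus strand at chr6:115360894-115361143 and chr6:115362099-115362348.
Il1rl1, first start: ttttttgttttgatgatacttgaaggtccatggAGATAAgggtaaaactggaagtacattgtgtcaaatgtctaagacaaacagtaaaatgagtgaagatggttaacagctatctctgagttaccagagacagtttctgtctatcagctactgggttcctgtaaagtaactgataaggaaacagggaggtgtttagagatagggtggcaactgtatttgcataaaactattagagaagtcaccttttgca
Il1rl1, second start: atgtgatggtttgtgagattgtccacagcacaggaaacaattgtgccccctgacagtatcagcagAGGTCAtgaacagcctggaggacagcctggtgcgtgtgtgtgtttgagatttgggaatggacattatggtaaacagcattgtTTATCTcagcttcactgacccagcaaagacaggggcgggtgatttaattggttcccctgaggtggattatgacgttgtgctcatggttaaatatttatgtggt
Pparg, first start: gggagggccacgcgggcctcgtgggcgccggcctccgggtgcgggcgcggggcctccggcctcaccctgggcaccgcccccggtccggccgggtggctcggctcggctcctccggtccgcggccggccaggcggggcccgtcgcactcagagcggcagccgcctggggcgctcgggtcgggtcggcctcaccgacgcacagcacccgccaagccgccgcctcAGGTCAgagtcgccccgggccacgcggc
Pparg, second start: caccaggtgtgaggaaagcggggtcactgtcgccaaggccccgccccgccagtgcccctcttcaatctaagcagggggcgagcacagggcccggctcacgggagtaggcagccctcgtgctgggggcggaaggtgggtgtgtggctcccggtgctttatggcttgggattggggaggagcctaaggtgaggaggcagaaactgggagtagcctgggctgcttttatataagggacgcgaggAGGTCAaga
The GATA letters lie 217 bases before the first Il1rl1 start and, on the other strand, 103 before the second. The AGGTCA letters lie 28 and 9 bases before the Pparg starts and 185 before the second Il1rl1 start. The window of Gata3 itself held none of these letters.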

How the data were processed

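Gene expression was measured on 4 one-colour Agilent arrays. Per the file headers, each scanner output came from the authors' Agilent Feature Extraction run, version 10.5.1.1 in the submitters' processing notes, whose processed signal, an intensity on a linear scale, had its background subtracted and its spatial trend removed (in large part not on knockout array 1). The deposited scanner outputs also give the fitted multiplicative surface, a linear ratio. The authors' deposited matrix holds log2 values; each column differed from the log2 processed signal by 1 constant within 0.001 for 100% of probes, and all columns had a median of 5.54, so scale and direction were settled and its centring is by array median. Flagged spots were left out (137 to 201 per array), log2 signals of a probe's spots were averaged with pandas 2.3.3, and the 75th percentile of non-control probes was subtracted. Precision is limited by having 4 arrays.

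Of 55681 probes, 35944 carried a gene or transcript name. RefSeq's GRCm38.p6 genes gave names to 26762 probes from an accession, 3819 from a symbol and 639 from a synonym. For 24461 the name in the file stayed, the members being matched by the file's name. With no covariates, limma 3.58.1 under R 4.3.3 was fitted on all 19151 tested genes with Benjamini-Hochberg adjustment at 0.05, and was tested on simulated data. Same-numbered arrays did not deviate together from their group means (r = -0.0011 across genes), so no pairing was used in the main fit. That value covers all tested genes and does not speak for the members. For Gata3, Pparg, Nfil3, Il1rl1 and Areg, replicate 1 stood above replicate 2 in both genotypes. The members and lists were chosen with earlier results of these data known. Named were all members and, per list, up to 2 tested genes of each direction with the smallest p, and other genes of a list where its members' role called for it, chosen after their values were seen. Of the genes this rule names, 1 is not reported here. Alternatives covered scaling, background correction, dim probes, probe choice, detrending, corner blocks, variance model, replicate block and arrays left out.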

Additional observations from a re-analysis of the deposited data

How the results depend on the processing

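The 7 tested members were refitted under 15 alternatives, and 0 passed an adjusted p of 0.05 in any. Gata3, Pparg, Nfil3, Il1rl1 and Il4ra kept a difference above 0 in all 15. For these genes many of the 15 could not change the sign. Their groups do not overlap, so leaving out 1 array could not. The replicate block, the variance model and the filters on dim probes left their differences unchanged. The authors' matrix gave the same differences as the median shift. With 1 array left out Areg ranged from -0.15, without miR-155 knockout replicate 1, to 1.66. Crlf2 was at -0.0011 both with arrays shifted by their medians and in the authors' matrix, where the median of all genes was -0.14. Genes called over the whole array numbered 122 with trended, robust variances and 0 to 30 with 1 array left out, the 30 without wild type replicate 1. Members higher at an unadjusted p under 0.05 numbered 1 with median shifts and in the authors' matrix, 5 with normexp, and 1 to 4 with 1 array left out, the 4 without miR-155 knockout replicate 2. The members' median was 0.33 to 1.16 with 1 array left out. The causes were not tested. Median shifts left 24.9% of unadjusted calls higher over all genes, against 63.8%, and normexp gave 3082 higher and 1150 lower. With the replicate number as a block, which is also the slide column, 0 genes passed and 3 members were higher at an unadjusted p under 0.05, as many as without it but with Il1rl1 in place of Nfil3. Il1rl1 had an unadjusted p of 0.00726 and Nfil3 of 0.0795 in that limma fit. The numbers share a slide column, and the labels give no other link. The Gpr44 probe was not well above background on any array, and the proximal Il1rl1 probe on knockout array 1 alone.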
